A study of Mus musculus with 6 samples.

Results

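The cartilage collagens are the 8 genes Col2a1, Col9a1, Col9a2, Col9a3, Col10a1, Col11a1, Col11a2 and Col27a1. They were chosen by gene name and make up 8 of the 54532 gene rows in the deposited table. Their transcripts were measured by RNA-seq in mouse mesenchymal stromal cells (MSCs) of compact bone, in 3 libraries of each genotype that held between 14724357 and 18354894 assigned fragments. The cells grew out of collagenase-digested femur and tibia chips and were then sorted on the fluorescent reporter. Both genotypes carried Prx1-Cre+, a Cre driven by a Prx1 (Prrx1) limb mesenchyme enhancer, and the ROSA-YFP reporter; the WT alleles were Zeb1wt/wt, and in the mutant, Zeb1Prx1, they were Zeb1fl/fl. All cells were untreated, and the labels give neither age nor sex. Whether each replicate was its own mouse or culture is not stated, and the p-values therefore reflect the spread among these libraries, which may be technical.

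Type II collagen, a homotrimer of the Col2a1 chain, is the main fibril of cartilage. Type XI collagen, built from Col11a1, Col11a2 and a Col2a1-derived chain, nucleates these fibrils and limits their width, and type IX collagen, a heterotrimer of Col9a1, Col9a2 and Col9a3, sits on their surface. Type X collagen (Col10a1) is a network-forming homotrimer made by hypertrophic chondrocytes, and type XXVII (Col27a1) is a fibrillar collagen of the growth plate. Zeb1 is a zinc-finger repressor, which the series' title pairs with the FGF receptor Fgfr3 in skeletal development.

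Type II, IX and XI chains were higher in every Zeb1Prx1 library than in every WT library, except Col9a2, which was higher in 2 of 3. The mean of Col2a1 was 3.62 FPKM in WT and 539 in Zeb1Prx1, and that of Col11a1 24.3 and 106. FPKM are fragments divided by gene length and library size, so genes can be compared with each other. In Zeb1Prx1 replicate 3 all 8 genes were above 1 FPKM, against 5 in each of the other 2 mutant libraries and 2 or 3 in the WT libraries. No cartilage collagen passed the test over all genes, and the mutant libraries differed widely from each other.

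Zeb1 binds DNA at E-box sequences of the CAGGTG type, and members that move together may be read beside the sequence at their starts. RefSeq windows (build GRCm38.p6, from 250 bases before to 50 after a start) were found for 6 of the 8 genes. They gave 7 windows, Col9a1 having 2. Col2a1 and Col9a3 had no entry. Both strands were searched for CAGGTG, for AACAAT, which is a core of Sox-type sites, and for TATAAA. No matches overlapped in these windows. CAGGTG was present in 1 of the 7 windows, that of Col9a2, where it begins 22 bases into the transcript, and in 20.2% of all 32851 windows. TATAAA was present in the windows of Col10a1, beginning 32 bases before the start, and Col11a2, beginning 143 bases before it, and in 13.6% of all windows. AACAAT was in none of the 7 and in 10.7% of all. The RefSeq starts of Col9a2, Col11a2 and Col27a1 differ from the gene starts in the deposited table. The windows of Col9a2, of the pair of type XI chains and of Col10a1 are shown because they differ in these letters; capitals mark the motifs, and sequences read 5′ to 3′.
Col9a2 (chr4:121039316-121039615, plus strand): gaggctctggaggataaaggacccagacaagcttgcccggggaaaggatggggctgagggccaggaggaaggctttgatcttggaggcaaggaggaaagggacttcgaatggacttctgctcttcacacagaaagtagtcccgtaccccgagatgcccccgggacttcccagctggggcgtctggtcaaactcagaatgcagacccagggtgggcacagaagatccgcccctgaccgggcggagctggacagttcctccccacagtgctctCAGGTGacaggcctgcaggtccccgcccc
Col11a1 (chr3:114030290-114030589, plus strand): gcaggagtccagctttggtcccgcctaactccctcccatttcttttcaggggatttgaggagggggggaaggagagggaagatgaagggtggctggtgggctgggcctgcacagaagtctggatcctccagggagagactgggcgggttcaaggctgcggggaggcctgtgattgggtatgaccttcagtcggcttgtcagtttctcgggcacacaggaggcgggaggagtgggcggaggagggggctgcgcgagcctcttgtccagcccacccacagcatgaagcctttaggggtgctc
Col11a2 (chr17:34038888-34039187, plus strand): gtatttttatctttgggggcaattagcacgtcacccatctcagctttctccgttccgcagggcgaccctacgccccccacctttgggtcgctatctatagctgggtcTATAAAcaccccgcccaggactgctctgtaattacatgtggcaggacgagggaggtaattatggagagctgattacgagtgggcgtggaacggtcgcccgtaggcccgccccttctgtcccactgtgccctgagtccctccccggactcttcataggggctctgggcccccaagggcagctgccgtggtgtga
Col10a1 (chr10:34389731-34390030, plus strand): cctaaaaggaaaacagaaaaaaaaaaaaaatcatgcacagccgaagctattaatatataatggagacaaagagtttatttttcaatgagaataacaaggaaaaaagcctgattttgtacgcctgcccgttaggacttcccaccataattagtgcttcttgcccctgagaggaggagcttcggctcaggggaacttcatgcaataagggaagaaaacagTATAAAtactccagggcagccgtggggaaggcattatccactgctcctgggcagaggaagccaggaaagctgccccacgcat
A match is a description of letters and not evidence of binding. The windows also differed in CpG number, with 0 and 1 in the Col9a1 windows, 6 in Col10a1, 9 in Col11a1, 10 in Col9a2, 16 in Col11a2 and 18 in Col27a1.

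Several facts of the whole series bear on these values. Zeb1 had 6.61, 10.3 and 7.12 FPKM in WT replicates 1, 2 and 3 and 1.92, 1.59 and 2.84 in Zeb1Prx1, which matches the labels, and Fgfr3 had 0.519 to 0.536 and 2.44 to 5.69. Stromal Prrx1 was present in all libraries (18.1 to 30.5 FPKM), but it does not stand for all stromal markers. Of 11 listed, 9 were tested, with 4 above 0 and 5 below (median log2 change -0.09). Those with the smallest p had WT and mutant means of 34.4 and 23.8 FPKM (Pdgfrb), 20.8 and 13.2 (Eng), 31.4 and 12.1 (Thy1), and 2.48 and 7.38 (Nt5e). Macrophage transcripts were abundant: the summed FPKM of 15 macrophage markers ran from 12373 to 15176 over the WT libraries, with 10213, 21031 and 12267 in the mutant ones. None was at 0 in any library, and Lyz2 was the largest (7034 to 16368 FPKM). Of the 15, 12 had a log2 change below 0 and 3 above it (median -0.32). Adgre1, Csf1r, Cd68, Ptprc and Cybb were lower in every mutant library, where the cartilage collagens were higher. The share of all genes lower in this way was not counted. The list did not move as a whole: the WT and mutant means were 9542 and 10853 FPKM for Lyz2, 289 and 345 for Tyrobp, and 12.0 and 13.4 for Aif1. Endothelial, red cell, lymphocyte and muscle markers summed to 1.99 to 22.1 FPKM, with Acta1 the highest, and Hba-a1, Hba-a2 and Myod1 were at 0 fragments throughout. Xist was lower in the mutant (26.8 to 40.4 against 0.00309 to 12.6 FPKM) and Ddx3y of the Y chromosome higher (4.45 to 8.19 against 14.6 to 21.9), so sex-linked transcripts differed between the genotypes, and the part of sex in the results was not tested. Zeb1Prx1 replicate 2 leaned to short genes: relative to the mean of the other 2 mutant libraries, its median log2 difference was 0.37 over the 4178 shortest tested genes and -0.25 over the 4178 longest, those of 5411 bases or more. Col2a1, Col11a1, Col11a2 and Col27a1 belong to the longest, and the part of length in their values was not tested.

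Col2a1 (ENSMUSG00000022483, mm10 chromosome 15, 97975602 to 98004695, minus strand, up to 54 exons in GENCODE M21) encodes the type II chain. It had 5.32, 1.17 and 4.38 FPKM in WT replicates 1, 2 and 3, from 900, 166 and 621 fragments. The Zeb1Prx1 libraries had 383, 60.0 and 1175 FPKM, from 56910, 9996 and 165809 fragments. The genotypes did not overlap, and the lowest mutant library was 11.3-fold above the highest WT library. By FPKM, Col2a1 ranked 7249, 12000 and 8067 among all genes in WT, and 62, 923 and 21 in the mutant. The means were 3.62 ± 2.18 against 539 ± 573 (SD, n = 3 each), 149-fold, or 61.2-fold without Zeb1Prx1 replicate 3.

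By limma on log2(FPKM + 1), the log2 change of Col2a1 was 6.17 (SE 1.02, 95% interval 3.76 to 8.58, adjusted p = 0.247 over 12534 tested genes). Genes were tested where at least 3 of the 6 libraries reached 1 FPKM, and 5 of the 8 cartilage collagens did. Col11a2 did so through the mutant libraries alone. Col10a1 and Col27a1 reached 1 FPKM in every mutant library. In WT, Col10a1 did so only in replicate 2 (1.56 FPKM) and Col27a1 only in replicate 3 (2.44 FPKM). Their places in the test therefore rest largely on the mutant libraries. Limma called 0 of the 5 at an adjusted p of 0.05 and 0 of all tested genes (0% called higher), and voom, run on fragments, called 0. An unadjusted p under 0.05 was reached by 1897 genes, and 8.15% of tested genes were higher at that level. Col2a1 and Col11a1 were among these, as were Col10a1 and Col11a2, whose places in the test rest largely or wholly on the mutant libraries. The median log2 change over all tested genes was 0.02. With weights per library, which gave Zeb1Prx1 replicate 3 a weight of 2.82 and replicate 2 a weight of 0.226, limma called 2.14% of tested genes higher, Col2a1 and Col11a1 among them. When the mean log2 level of the macrophage markers entered as a covariate the log2 changes were smaller, 3.59 for Col2a1 (adjusted p = 0.126), 0.91 for Col11a1 and 0.60 for Col11a2. In bulk RNA, more cells of a type and more RNA per cell cannot be told apart.

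**Figure D1:**
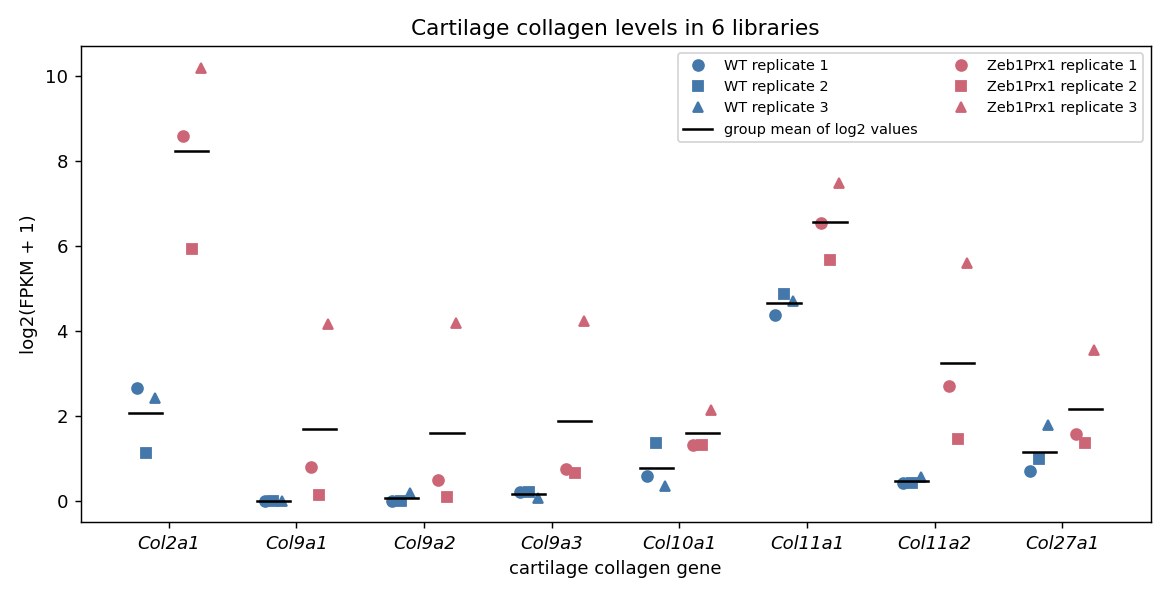
Level of each cartilage collagen gene as log2(FPKM + 1), for each of the 3 WT libraries (blue) and the 3 Zeb1Prx1 libraries (red), with bars at the group mean of the log2 values. Zeb1Prx1 replicate 3 is the highest library for all 8 genes, and Col11a1 is the member with the highest level in WT.

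Type XI collagen regulates fibril formation. Col11a1 (ENSMUSG00000027966, chromosome 3, 114030540 to 114220718, plus strand) had 19.8, 28.1 and 25.2 FPKM in the WT replicates, and 91.6, 49.5 and 177 FPKM in those of Zeb1Prx1. It was the best covered cartilage collagen in WT, with 4608 to 5497 fragments per library. The genotypes did not overlap, with a gap of 1.77-fold between the nearest libraries. The mean was 24.3 ± 4.21 against 106 ± 64.8 FPKM, 4.36-fold (2.90-fold without Zeb1Prx1 replicate 3), and the log2 change was 1.91 (SE 0.43, 95% interval 0.88 to 2.93, limma adjusted p = 0.259).

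Col11a2 (ENSMUSG00000024330, chromosome 17, 34039437 to 34066685, plus strand), the partner chain, was low in WT, with 0.328, 0.343 and 0.477 FPKM from 36 to 50 fragments. In Zeb1Prx1 it had 5.48, 1.75 and 47.1 FPKM from 602, 215 and 4919 fragments. Every mutant library was above every WT library, by at least 3.66-fold between the nearest ones. The mean was 0.382 ± 0.0819 against 18.1 ± 25.2 FPKM, 47.4-fold, which was 9.45-fold without Zeb1Prx1 replicate 3. As Col11a2 reached the filter on low values through the mutant libraries alone, its fitted value there (2.78, SE 0.94) is a description. Without a filter, limma gave the same log2 change with a 95% interval of 0.34 to 5.22 and an adjusted p of 0.482. On this scale the change of a gene under 1 FPKM in WT is understated; with a pseudocount of 0.1 it was 4.04.

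The type IX chains were at or near 0 in WT and above 16 FPKM in a single mutant library, Zeb1Prx1 replicate 3. Col9a1 (ENSMUSG00000026147, chromosome 1, 24177610 to 24252684, plus strand), which carries the large amino-terminal domain in its long form, had 0 fragments in all 3 WT libraries, where 3 fragments would equal 0.0323 to 0.0385 FPKM. It had 0.724, 0.0876 and 16.8 FPKM in Zeb1Prx1 replicates 1, 2 and 3, from 59, 8 and 1298 fragments. Scaled by assigned fragments Col9a1 was at least 434-fold higher, with the WT group set to a floor of 3 fragments in all. The bound was 31.0 without Zeb1Prx1 replicate 3, 681 without replicate 2, and 275 without WT replicate 1.

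Col9a2 (ENSMUSG00000028626, chromosome 4, 121039385 to 121055322, plus strand) had 0, 0 and 6 fragments in WT and 20, 3 and 812 in Zeb1Prx1. The FPKM were 0, 0 and 0.126 against 0.402, 0.0538 and 17.2. WT replicate 3 was above Zeb1Prx1 replicate 2, so the genotypes overlapped. The ratio of scaled fragments was 133 (95% exact interval 60.7 to 363) and 5.33 without Zeb1Prx1 replicate 3 (2.11 to 16.0); these intervals cover counting error only. Against WT replicates 1 and 2 alone, which had no fragment, Col9a2 was at least 184-fold higher. That bound leaves out WT replicate 3, the only WT library with Col9a2 fragments. It rests mainly on the 812 fragments of Zeb1Prx1 replicate 3.

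Col9a3 (ENSMUSG00000027570, chromosome 2, 180597790 to 180622189, plus strand) had 0.142, 0.152 and 0.0507 FPKM in WT, from 10, 9 and 3 fragments. In Zeb1Prx1 it had 0.678, 0.576 and 17.6 FPKM, from 42, 40 and 1037 fragments. The genotypes did not overlap. The ratio of scaled fragments was 48.5 (counting interval 31.9 to 77.7), or 5.18 (3.20 to 8.71) without Zeb1Prx1 replicate 3. Tcfl5, at 1.01 to 2.30 FPKM, lies on the opposite strand and shares 234 of the 3853 exonic bases of Col9a3 in GENCODE M21. The use of strand in counting is not given in the sources used here, so fragments in those bases cannot be assigned.

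The type IX genes were under the filter and were not tested. Without the filter, limma gave log2 changes of 1.69, 1.53 and 1.72 for Col9a1, Col9a2 and Col9a3, with adjusted p between 0.571 and 0.657. Together, 5 of the 8 cartilage collagens (Col2a1, Col9a1, Col9a3, Col11a1 and Col11a2) were higher without overlap, where 8.01% of the 27230 genes with any fragment were.

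Col10a1 and Col27a1 differed less. Col10a1 (ENSMUSG00000039462, chromosome 10, 34389981 to 34397085, plus strand), the marker of hypertrophic cartilage, had 0.489, 1.56 and 0.270 FPKM in the WT replicates. The Zeb1Prx1 replicates had 1.47, 1.49 and 3.39 FPKM. WT replicate 2 was above Zeb1Prx1 replicates 1 and 2, so the genotypes overlapped. The mean was 0.773 ± 0.689 against 2.12 ± 1.10 FPKM, 2.74-fold, which was 5.58-fold without WT replicate 2. The log2 change was 0.83 (SE 0.34, 95% interval 0.02 to 1.64, limma adjusted p = 0.326). Among the WT libraries only replicate 2 reached 1 FPKM, so the place of Col10a1 in the test rests largely on the mutant libraries. Nt5dc1 on the opposite strand, at 3.66 to 4.45 FPKM, shares 18 of the 3130 exonic bases of Col10a1.

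Col27a1 (ENSMUSG00000045672, chromosome 4, 63214004 to 63334991, plus strand) had 0.629, 0.974 and 2.44 FPKM in the WT replicates. The Zeb1Prx1 replicates had 1.94, 1.56 and 10.8 FPKM. The ranges overlapped, since WT replicate 3 was above Zeb1Prx1 replicates 1 and 2. The mean was 1.35 ± 0.959 against 4.76 ± 5.21 FPKM, 3.53-fold. It was 1.30-fold without Zeb1Prx1 replicate 3 and 5.94-fold without WT replicate 3. The log2 change was 1.00 (SE 0.60, 95% interval -0.42 to 2.42, limma adjusted p = 0.422). Among the WT libraries only replicate 3 reached 1 FPKM, so the place of Col27a1 in the test also rests largely on the mutant libraries.

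**Figure D2:**
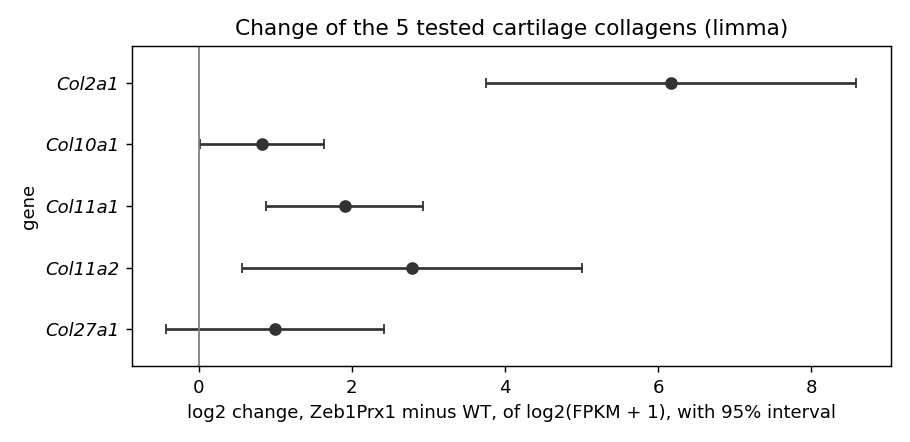
Log2 change (Zeb1Prx1 minus WT, on log2(FPKM + 1), horizontal axis) with the 95% interval from limma for the 5 cartilage collagens that passed the filter on low values, Col11a2 through the mutant libraries alone. In WT, Col10a1 reached 1 FPKM only in replicate 2 and Col27a1 only in replicate 3. The interval of Col27a1 spans 0, and that of Col2a1 runs from 3.76 to 8.58.

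The 3 mutant libraries differed from each other in a repeated order. Replicate 3 was highest for all 8 genes, and 7 of the 8 followed the order replicate 3, replicate 1, replicate 2, the exception being Col10a1, which was level in replicates 1 and 2. This order was noticed in the values, and 15.7% of the genes with any fragment showed it. The step from replicate 1 to replicate 3 was unequal between chains. It was 1.93-fold for Col11a1, 2.30-fold for Col10a1, 3.07-fold for Col2a1, 5.54-fold for Col27a1 and 8.60-fold for Col11a2. For the type IX chains it was 23.1-fold (Col9a1, counting interval 17.8 to 30.6), 42.7-fold (Col9a2, 27.5 to 70.3) and 26.0-fold (Col9a3, 19.1 to 36.3). From replicate 2 to replicate 1, Col2a1 was 6.39-fold higher, Col11a2 3.14-fold, Col11a1 1.85-fold and Col27a1 1.25-fold, with Col10a1 at 0.988. The type IX chains differed in this step. Col9a1 was 8.27-fold (3.94 to 20.0) and Col9a2 7.48-fold (2.22 to 39.3), from 8 and 3 fragments in replicate 2. Col9a3 was 1.18-fold (0.745 to 1.86). Replicates have no order of their own, and this spread is the error against which the genotypes were tested.

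Among the mutant libraries, replicate 3, with the highest cartilage collagen levels, also had the most Zeb1 (2.84 FPKM) and the most Fgfr3 (5.69 FPKM). Of 14 chondrocyte markers other than the collagens, 10 followed the same order. Their summed FPKM was 9.21, 204 and 151 over the WT replicates, against 173, 91.7 and 1430 in the mutant. Comp, a pentameric matrix protein also made in tendon, was most of the sum in every library but WT replicate 1. Of the 14, 4, 5 and 1 were at 0 in WT replicates 1, 2 and 3 (Snorc in all of them), and none was at 0 in the mutant. Their median was 0.0809 to 0.221 FPKM in WT and 0.932, 0.602 and 12.7 in the mutant. The part of the share of chondrocyte-like cells in the collagen values was not tested.

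Because FPKM is per length, levels of different chains can be set beside each other within a library. In WT the order by mean was Col11a1, Col2a1, Col27a1, Col10a1, Col11a2, Col9a3, Col9a2 and Col9a1. Col11a1 lay above Col2a1 without overlap and Col11a2 above Col9a3; the other neighbours overlapped in range. In Zeb1Prx1 the order was Col2a1, Col11a1, Col11a2, Col9a3, Col9a2, Col9a1, Col27a1 and Col10a1, where the ranges of Col11a1 and Col11a2 were separate and all other neighbours overlapped, though Col2a1 exceeded Col11a1 in each of the 3 libraries.

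Col11a1 made up 74.1%, 87.0% and 76.5% of the summed cartilage collagen FPKM in WT replicates 1, 2 and 3, and Col2a1 20.0%, 3.62% and 13.3%. In Zeb1Prx1 Col2a1 made up 78.9%, 52.2% and 80.2% and Col11a1 18.9%, 43.0% and 12.1%. The type IX chains together reached 3.52% in Zeb1Prx1 replicate 3 and 0.372% to 0.624% in the other 5 libraries. The 8 genes were 0.791% to 0.912% of the FPKM of all 44 collagen genes in WT and 6.80%, 3.07% and 20.5% in Zeb1Prx1. Among the 44 collagen genes Col2a1 ranked 17, 20 and 19 in WT and 6, 8 and 3 in Zeb1Prx1.

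**Figure D3:**
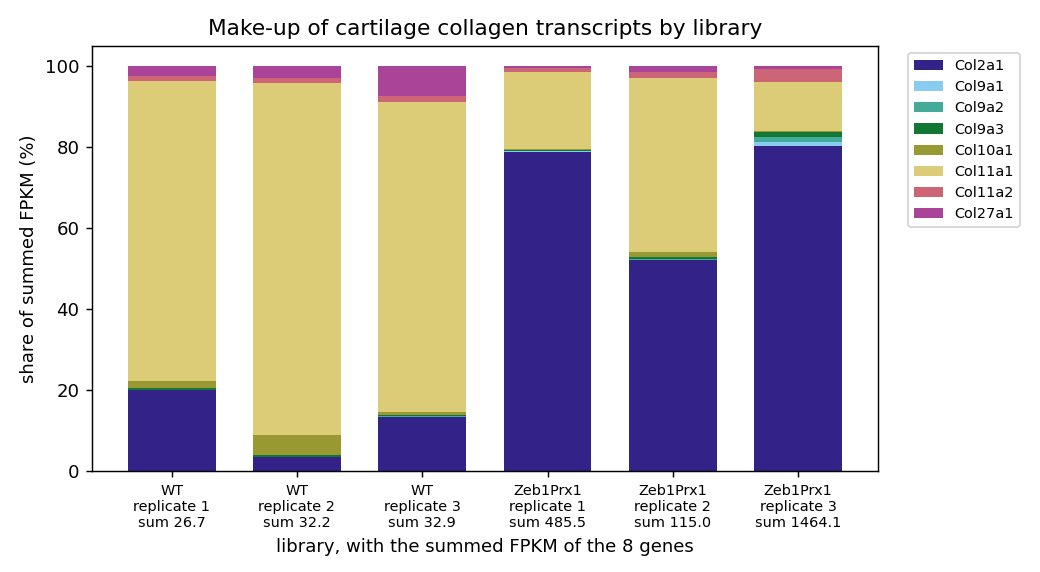
Share of each chain in the summed FPKM of the 8 cartilage collagen genes (vertical axis, percent) in each library, with the sum under each bar. Col11a1 takes 74.1% to 87.0% in the WT libraries, and Col2a1 takes 52.2% to 80.2% in the Zeb1Prx1 libraries.

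Chain ratios were compared for 14 pairs, in libraries where both chains had at least 10 fragments. A test was possible for 8 pairs, and 3 against 3 libraries cannot give an exact p below 0.10. The ratio of Col11a1 to Col2a1 was 3.71, 24.0 and 5.75 in the WT replicates, against 0.239, 0.825 and 0.150 in the mutant ones. Col11a1 was thus the more abundant chain in every WT library and the less abundant in every mutant library. The difference of the mean log2 ratio was -4.69 (two-sided exact permutation p = 0.1, 0.114 adjusted over the 8 pairs). Leaving out WT replicate 2 gave -3.90, and leaving out Zeb1Prx1 replicate 2 gave -5.40.

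The type XI chains were nearer to each other in level in the mutant. Col11a2 was 1.66%, 1.22% and 1.90% of Col11a1 in WT and 5.99%, 3.53% and 26.7% in Zeb1Prx1, with no overlap. The difference of the log2 ratio was 2.40 (from -6.00 ± 0.325 to -3.60 ± 1.51), with the same exact p of 0.1. It was 1.55 without Zeb1Prx1 replicate 3 and 3.01 without replicate 2. Against Col2a1, Col11a2 was a smaller share in the mutant (6.16%, 29.3% and 10.9% against 1.43%, 2.91% and 4.01%), with a log2 difference of -2.29, or -1.68 without WT replicate 2.

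For type IX, ratios could be read only in Zeb1Prx1 replicates 1 and 3. In replicate 3 the chains were near equal, with Col9a2 at 1.02 (counting interval 0.937 to 1.12) and Col9a3 at 1.05 (0.968 to 1.14) times Col9a1. Replicate 1 had fewer fragments and gave 0.555 (0.317 to 0.935) and 0.936 (0.615 to 1.41). In replicate 2, with 8 and 3 fragments of Col9a1 and Col9a2 beside 40 of Col9a3, no ratio was formed. Relative to Col2a1, Col9a1 was 0.189% in replicate 1 and 1.43% in replicate 3, and Col9a3 was 0.177%, 0.960% and 1.50% in replicates 1, 2 and 3. With no WT ratio or only 1, these pairs have no test.

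Col11a1 also joins chains of type V collagen, the fibril nucleator of bone and stroma. The ratio of Col11a1 to Col5a1 was 0.128, 0.204 and 0.168 for the WT replicates and 0.349, 0.301 and 1.64 in Zeb1Prx1, with no overlap (difference of the log2 ratio 1.77, or 0.99 without Zeb1Prx1 replicate 3; exact permutation p = 0.1). Relative to Col5a2 it was 0.110, 0.124 and 0.139 against 0.199, 0.146 and 0.530. Col5a1 itself had 154, 138 and 150 FPKM in the WT replicates. In the mutant it had 263, 164 and 107 FPKM, the last below every other library.

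Relative to Col2a1, Col10a1 and Col27a1 were lower in each mutant library than in each WT library. The mean log2 ratio of Col10a1 to Col2a1 was -2.35 ± 2.41 in WT and -7.26 ± 1.69 in the mutant, and that of Col27a1 to Col2a1 -1.40 ± 1.49 and -6.55 ± 1.19 (SD, n = 3 each). The first difference, -4.92, was -3.53 without WT replicate 2, and the second, -5.16, was -6.00 without WT replicate 1. The ratio of Col27a1 to Col11a1 did overlap, with 3.19%, 3.47% and 9.68% in WT and 2.12%, 3.15% and 6.10% in Zeb1Prx1 (exact permutation p = 0.5). Of the 8 tested pairs, 7 did not overlap, with p adjusted over the pairs at 0.114; the pairs share chains, so they are not separate findings.

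**Figure D4:**
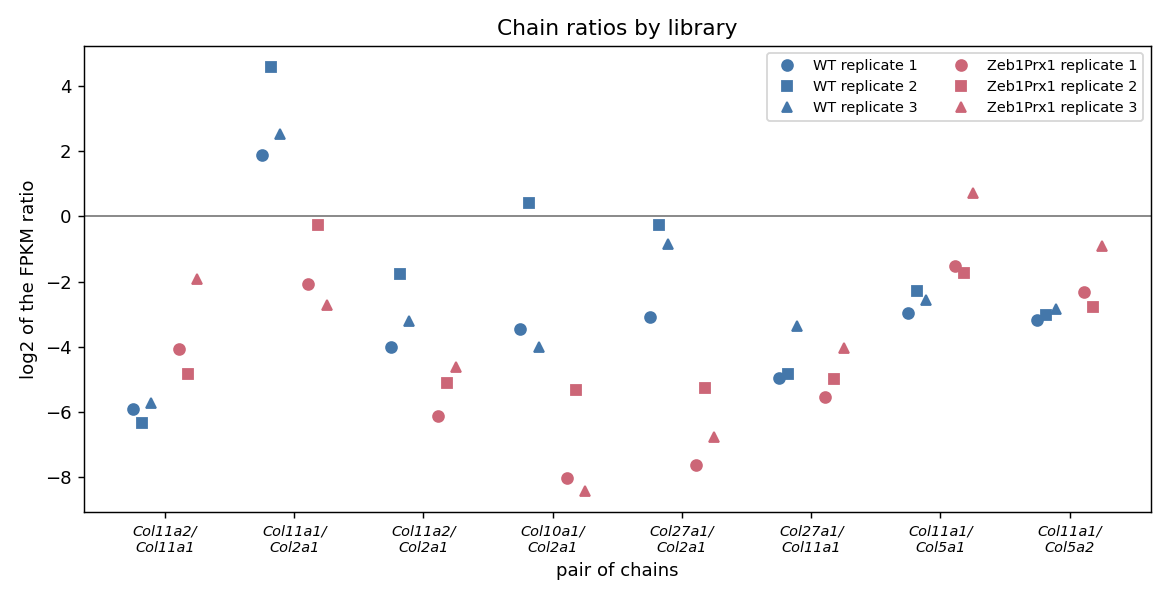
Log2 of the FPKM ratio (vertical axis) of the 8 tested pairs of chains, for each WT library (blue) and Zeb1Prx1 library (red). Col11a1/Col2a1 lies above 0 in each WT library and below 0 in each Zeb1Prx1 library, and Col27a1/Col11a1 overlaps between genotypes.

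The wider set of genes around these collagens was read from the same fit, in which no gene was called. Counts above 0 are to be read beside the median log2 change of all 12534 tested genes, 0.02. The share of all tested genes above 0 was not counted. A gene that passed the filter through the mutant libraries alone is bound to lie above 0. Of 36 regulators of cartilage collagen genes in the table, 22 were tested, 14 of them above 0, with a median log2 change of 0.16. Sox9, the chief activator of Col2a1, had 4.19, 4.33 and 5.45 FPKM in the WT replicates against 15.0, 6.27 and 40.7 in the mutant, without overlap (log2 change 1.59, SE 0.57, limma adjusted p = 0.298). Wwp2, the host gene of the cartilage microRNA miR-140, had 9.35 ± 0.906 against 22.3 ± 10.7 FPKM. Mef2c, an activator of Col10a1 in hypertrophic cartilage, had 5.33 ± 0.514 against 3.16 ± 0.798, and Zeb2 17.2 ± 0.880 against 9.91 ± 2.62, both lower without overlap. These 4 had the smallest p of the list, in which 5 of the 36 genes were higher and 3 lower without overlap. Over the 27230 genes with any fragment, 8.01% were higher without overlap, and the share lower was not counted.

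Of 29 cartilage matrix proteins and receptors that bind these collagens, 19 were tested and 14 were above 0, with a median of 0.49. Acan, the large aggregating proteoglycan, had 0.322 ± 0.506 against 48.1 ± 64.1 FPKM (21.8, 1.28 and 121 by replicate). It was under 1 FPKM in every WT library and was thus tested through the mutant libraries alone. The collagen receptor chain Itga10 had 1.50 ± 1.21 against 5.11 ± 3.30, the link protein Hapln1 1.27 ± 1.65 against 13.6 ± 16.4, and the collagen-binding Sparc 770 ± 106 against 1461 ± 465.

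Genes of procollagen folding, modification, export and trimming numbered 34 tested, of which 26 were above 0 and 8 below, with a median of 0.37. The collagen chaperone Serpinh1 had 305 ± 32.1 against 504 ± 74.5 FPKM, the prolyl isomerase Fkbp10 69.0 ± 12.8 against 110 ± 14.4, P3h4 of the lysyl hydroxylation complex 65.3 ± 16.7 against 115 ± 36.1 and the proteinase enhancer Pcolce 108 ± 33.7 against 236 ± 127. These 4 had the smallest p of the list. Each was higher in all mutant libraries, with limma adjusted p from 0.275 to 0.312. In the whole list, 7 of 38 genes were higher without overlap, against 8.01% of the 27230 genes with any fragment. Of 12 tested collagen-cleaving enzymes and inhibitors 9 were above 0, and Mmp13, the main collagenase of type II collagen, had 146 ± 111 against 384 ± 41.2.

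Of 36 other collagen genes, 18 were tested, 11 above 0 and 7 below, with a median of 0.27. Col5a2 had 196 ± 26.4 against 377 ± 71.5 FPKM and Col8a2 3.86 ± 3.21 against 12.2 ± 4.84, while basement membrane Col4a2 had 45.3 (26.0 to 79.8 by library) against 13.3 ± 4.37 and Col18a1 10.5 ± 1.71 against 6.09 ± 0.656. The bone collagen Col1a1 had 1684 ± 220 against 2332 ± 932 and overlapped. Of 9 tested osteoblast markers, 8 were above 0 (median 0.72). Ibsp (4.93 ± 1.58 against 25.7 ± 14.9 FPKM) and Omd (3.93 ± 0.334 against 24.5 ± 13.2) had the smallest p and were higher without overlap. The osteoblast factor Sp7 had 2.65, 1.42 and 0.843 FPKM in the WT replicates and 12.2, 7.20 and 0.944 in those of Zeb1Prx1. Sp7 and Ibsp were each lower in Zeb1Prx1 replicate 3, where the cartilage collagens were highest, than in the other mutant libraries. Omd was highest there, with 30.7, 9.30 and 33.5 FPKM in Zeb1Prx1 replicates 1, 2 and 3.

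Genes with profiles over the 6 libraries near to those of Col2a1, Col11a1, Col27a1 and Col10a1 were found among 8065 genes, by the distance between standardised log2(FPKM + 1) values, where 0 is the same shape. For Col2a1 they included Acot8 (distance 0.307), Cdc42bpg (0.419), Serpinh1 (0.472) and Omd (0.512). Col11a1 lay 0.722 and Col11a2 0.991 from Col2a1, and ranked 40 and 115 in nearness among all tested genes. Col27a1 (1.76) and Col10a1 (1.84) lay farther from Col2a1 and ranked 834 and 966. Col11a2 was among the tested genes through the mutant libraries alone, so its nearness is no support for a shared profile. For Col11a1 the nearest were Rbp4 (0.244), Eps8l2 (0.280), Tmem39a (0.322), Sparc (0.343) and G6pc3 (0.459). Rbp4 and Eps8l2 were under 1 FPKM in every WT library, so they were among the candidates through the mutant libraries alone. For Col27a1 they were Adgrg2, Il1rn, Fzd2, Fkbp9 and Mest (0.390 to 0.536), and for Col10a1 Nfil3, Rab3a, Higd1a, P3h4 and Grb14 (0.200 to 0.431). Rbp4 had 0.296 ± 0.190 against 24.1 ± 27.8 FPKM, and Tmem39a 9.80 ± 0.620 against 13.6 ± 2.22, so genes of like shape differed widely in size of change.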

How the data were processed

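RNA-seq of 6 mouse libraries was analysed from 1 table of FPKM, which the authors deposited with gene names, mm10 coordinates and gene lengths per the file headers; the build is from the submitters' processing notes. Left unnamed by the sources used here were the aligner, the counter and the strand setting. Recovered fragments were used because 127408 of 127408 values above 0, times gene length, were whole multiples of a library's own step (relative tolerance 1e-06). Intervals and the floor of 3 fragments cover counting error only.

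Limma 3.58.1 in R 4.3.3 tested log2(FPKM + 1), with an intensity trend, without a block, and with Benjamini-Hochberg adjustment over the 12534 genes with at least 1 FPKM in at least 3 of the 6 libraries; it was tested on simulated data. Chain ratios used two-sided exact permutation tests. Named were the 8 members, Zeb1, Fgfr3, up to 4 genes per list by smallest p, and the 5 nearest profiles among genes of at least 5 FPKM, of which 1 is not reported here; Prrx1, Comp, Acta1, Sp7, Col5a1, Col1a1, sex-linked genes, Lyz2, the 5 lower macrophage markers and markers at 0 were named after their values were seen. Members and lists were chosen with earlier results of these data known. Alternatives were other pseudocounts, filters, scalings and weights, the replicate block, voom, a macrophage covariate and leaving out each library. All 8 gene coordinates were identical in GENCODE M21.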

Additional observations from a re-analysis of the deposited data

How the results depend on the processing

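With library weights, which gave Zeb1Prx1 replicate 3 a weight of 2.82 and replicate 2 a weight of 0.226, limma called 447 genes, 268 of them higher. It called 3 cartilage collagens, Col2a1 and Col11a1 (adjusted p = 0.0309 and 0.0361) and Col11a2 (0.0463), whose call is no support since it was tested through the mutant libraries alone. Leaving out 1 library gave 0 to 1 called genes, the 1 without Zeb1Prx1 replicate 2, and 0 called cartilage collagens. The other alternatives called 0 genes. No log2 change of the 5 changed sign under any alternative that could test it. For Col11a2 this is no support, since it was tested through the mutant libraries alone. The places of Col10a1 and Col27a1 in the test also rest largely on those libraries. The range over alternatives was 3.59 to 7.64 for Col2a1, 0.91 to 2.51 for Col11a1, 0.60 to 4.35 for Col11a2, 0.37 to 1.63 for Col10a1 and 0.12 to 1.81 for Col27a1, each lowest with the macrophage list as a covariate. Col11a2 was under the filter when any Zeb1Prx1 library was left out. When every library was scaled to the same FPKM total, Col2a1 stood at 6.02 and the median over all tested genes at -0.12 in place of 0.02. Among the chain ratios, the difference of Col10a1 to Col2a1 ranged from -7.68 to -3.53 and that of Col27a1 to Col11a1 from -0.88 to 0.05. With the replicate block, limma called 0 genes (smallest adjusted p = 0.348) and 0 cartilage collagens. It counted 1347 genes at an unadjusted p under 0.05, against 1897 without the block. The block lowered the SE of Col2a1 from 1.02 to 0.56 and that of Col27a1 from 0.60 to 0.31, and raised that of Col10a1 from 0.34 to 0.38. Deviations of same-numbered libraries had correlations of 0.029, -0.41 and 0.080. These deviations were taken from the mean of only 3 libraries per genotype, so they cannot decide whether the numbers pair the samples. Depth limited the type IX ratios, where the minimum of 10 fragments per chain left no WT value between type IX chains, and against Col2a1 only that of Col9a3 in WT replicate 1.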

Other observations

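In WT, Col2a1 did not vary together with several other cartilage genes, as values named after they were seen show. WT replicate 2 had the lowest Col2a1 (1.17 FPKM, against 5.32 and 4.38) and the highest Col10a1 (1.56, against 0.489 and 0.270) and Col11a1 (28.1, against 19.8 and 25.2). It also had the most Acan (0.906 FPKM, against 0 and 0.0610), Hapln1 (3.18, against 0.287 and 0.353) and Comp (195, against 3.13 and 144). WT replicate 3 had the only Col9a2 fragments of the genotype and the highest Col27a1.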
